A study of Mus musculus with 7 samples.

Results

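The Igf2 and H19 imprinted domain of mouse chromosome 7 was examined for binding of CTCF, a zinc finger protein that holds insulators and the borders of chromatin loops. Members were chosen by position only, as all peaks whose centre lies at chr7:142540000-142700000 of the mm10 build, on either strand and in any library. The rule gave 208 peaks of 2603994 in the 7 libraries, and these held 11 peak pairs, a pair being a forward peak followed, 10 to 80 bp further on, by a reverse one. RefSeq places H19 at chr7:142575530-142578146, Igf2 at chr7:142650768-142666816 and Ins2 at chr7:142678656-142679726 of the same coordinates, so that the label of the domain fits its annotation.

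At this domain the copies of the chromosome inherited from the mother and from the father are used differently. H19, which makes a long RNA that is not translated, is expressed from the maternal copy, and Igf2, which encodes an insulin-like growth factor, from the paternal copy. The control region between them, upstream of H19, is methylated on the paternal copy, and CTCF binds the unmethylated maternal copy, where it keeps enhancers beyond H19 from acting on Igf2. Ins2, next to Igf2, encodes one of the insulins of the mouse. The peak lists carry no information on the allele, so every value below is a sum over both copies.

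All 7 libraries came from wildtype mice by ChIP-exo 5.0, in which an exonuclease trims precipitated DNA up to the crosslinked protein, so that each sequenced tag marks the base where the enzyme stopped. The organ libraries were made from brain, lung, kidney and liver of adult male mice aged 16 weeks, with 100 mg of tissue each. The titration libraries are labelled as 2,700,000, 270,000 and 27,000 liver cells. The paper estimated liver cell numbers from the wet weight of tissue, so the titration and the liver organ library are both of liver tissue. Every condition had 1 library, which leaves no replicate error, so no test was made and all intervals given are 95% intervals for counting error only. The labels name an antibody to CTCF for each library while their extraction text names IgG, and they give 0.3% formaldehyde where the methods give 1%. An organ is a mixture of cell types, and fewer cells with CTCF at a site cannot be told apart from less CTCF per cell.

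The libraries differed widely in depth. Brain had 1032833 listed tags, lung 691479, kidney 1635582, the liver organ 527038, and the titration 6592538, 640635 and 35594 from most to fewest cells. Only peaks of at least 2 tags are listed, so a 0 means that no such peak was listed, not that no tag fell there. In the 6 shallower libraries 72.8% to 91.5% of all peaks had every tag at 1 position, against 33.1% in the library of 2,700,000 cells. Whether the tags of such a peak are separate molecules was not tested, and these peaks are named as such below.

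The strongest site of the domain lay in Gm33148, a gene for a long noncoding RNA between H19 and Igf2, and a stretch of the reference around it is shown because the exonuclease stops can be placed on it. It is the window from 250 bases before to 50 bases after an annotated start of Gm33148 at chr7:142610569-142610868, plus strand. The second stretch is the part before the annotated Igf2 start of lowest coordinate, chr7:142657497-142657746, minus strand. It is shown beside the first as a stretch with short C- and G-rich runs and no peak. Capitals mark the letters CCNNNNGNNGGC, which resemble part of the CTCF motif, in the first and AGGGGGC, on either strand, in the second. The first set of letters was chosen after the sequence had been seen.
Gm33148: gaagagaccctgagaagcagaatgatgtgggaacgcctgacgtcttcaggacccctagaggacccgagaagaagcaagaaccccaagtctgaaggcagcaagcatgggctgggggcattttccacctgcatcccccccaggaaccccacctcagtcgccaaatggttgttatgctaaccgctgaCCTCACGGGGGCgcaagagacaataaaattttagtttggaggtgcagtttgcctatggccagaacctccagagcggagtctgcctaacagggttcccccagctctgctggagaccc
Igf2: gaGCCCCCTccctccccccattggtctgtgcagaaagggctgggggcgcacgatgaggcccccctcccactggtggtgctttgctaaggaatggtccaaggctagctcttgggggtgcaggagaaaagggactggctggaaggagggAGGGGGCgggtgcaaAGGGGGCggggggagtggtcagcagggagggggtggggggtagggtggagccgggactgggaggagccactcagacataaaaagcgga

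Over the whole domain brain held 100 tags, lung 41, kidney 97 and the liver organ 32. The titration gave 480 tags with 2,700,000 cells, 25 with 270,000 and 0 with 27,000. Relative to depth, brain was highest at 96.8 tags per 1,000,000 listed tags (79.6 to 118) and 270,000 cells lowest among the libraries with tags at 39.0 (26.4 to 57.6). The interval of brain overlaps that of the 2,700,000-cell library, which had 72.8 (66.6 to 79.6), only at its edge, and lies above that of kidney, at 59.3 (48.6 to 72.3). Lung with 59.3 (43.7 to 80.4) and the liver organ with 60.7 (43.0 to 85.7) could not be told from kidney by counting error. All intervals here and below treat tags as separate, although tags are listed only in peaks of at least 2. The tags lay in 32 peaks in brain and in 25 in kidney, all of the latter at 1 position. The intervals are too narrow if tags of a peak are not separate, so they do not settle whether brain and kidney differ.

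Against 16620 windows of 160 kb over the genome, the domain was above the middle of the range in 5 of the 6 libraries with tags. Brain held 2.08 times and the 2,700,000-cell library 2.26 times the tags of the median window, and 89.5% and 74.1% of windows held fewer. The ratio was 1.52 in lung, 1.14 in kidney and 1.45 in the liver organ. In 270,000 cells the domain equalled the median window of 25 tags. The neighbouring regions of equal length held still more, with 542 tags on the H19 side and 992 on the Ins2 side for 2,700,000 cells, and 129 and 113 for brain. Both sides also held more than the domain in lung (109 and 81), kidney (138 and 108) and 270,000 cells (47 and 68). In the liver organ the H19 side held more, with 47, and the Ins2 side did not, with 31.

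**Figure D1:**
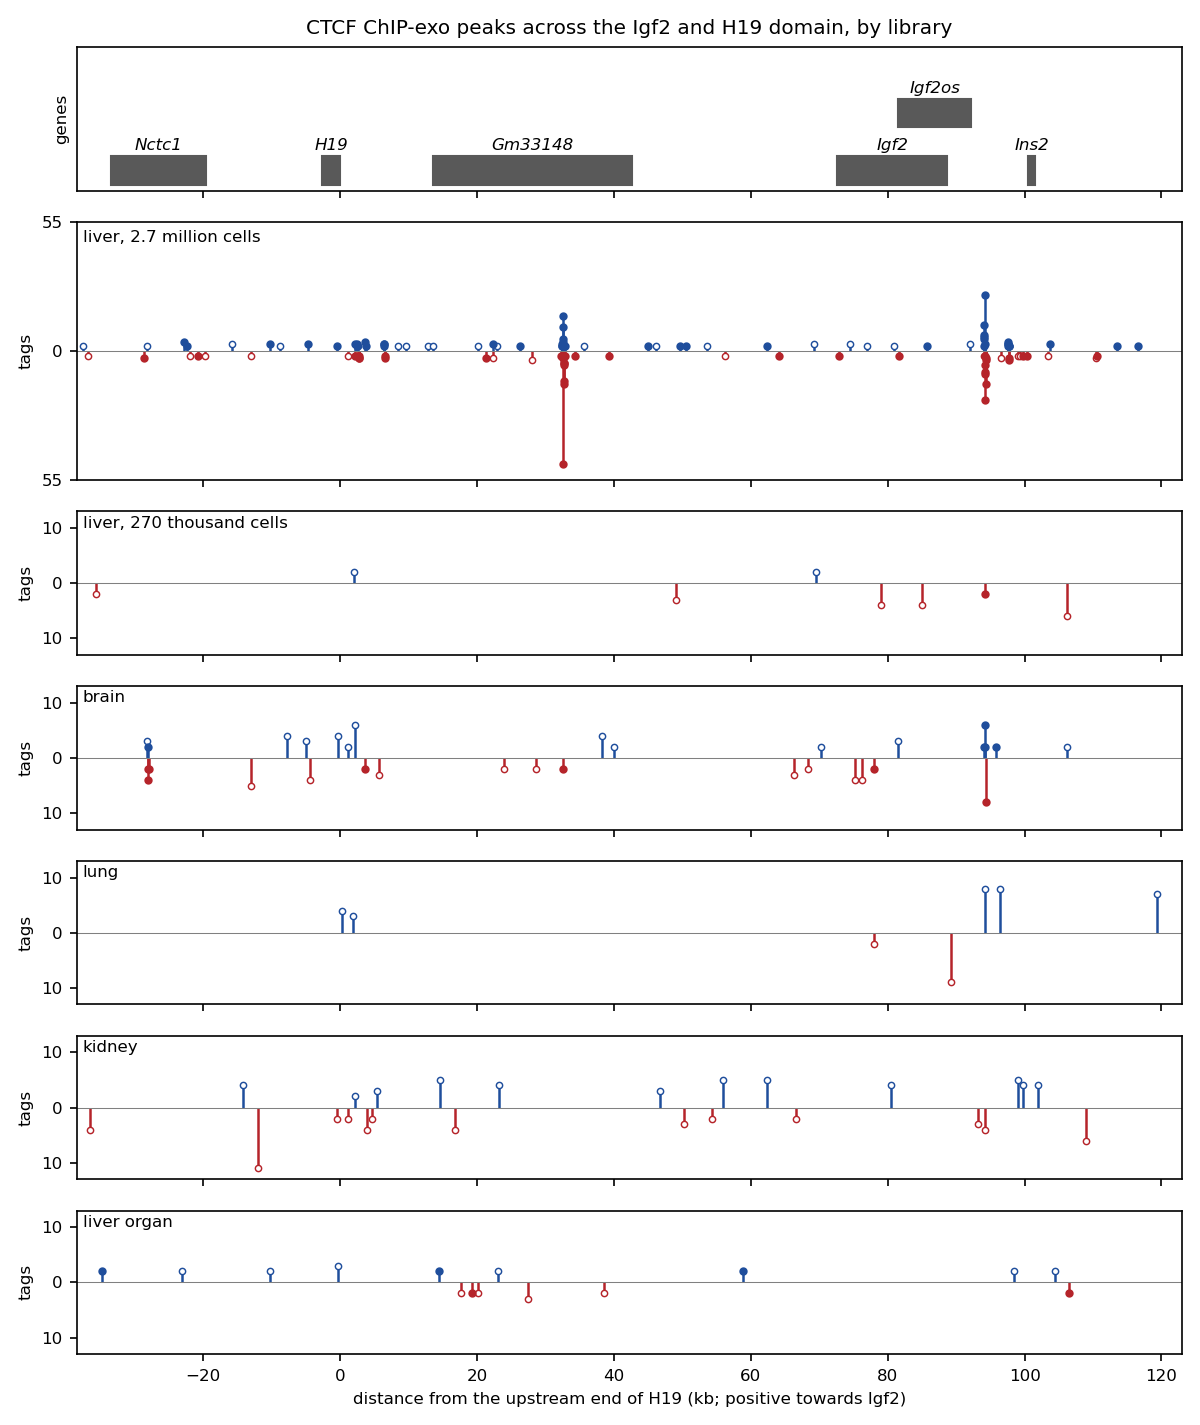
Tags of each peak in the domain (vertical axis, forward strand up in blue, reverse strand down in red) against the distance in kb from the upstream end of H19, with genes on top and 1 row per library. Filled points are peaks with tags at more than 1 position and open points peaks with all tags at 1 position, and the top row has its own scale, which reaches 48 tags at the Gm33148 site. The library of 27,000 cells has no peak and is left out.

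The peaks were not spread evenly. Pairs at most 100 bp apart were joined to 7 sites, and sites within 500 bp were read together as 5 places. Their names give their position among the genes, not always the nearest gene. These places cover 2.11% of the length of the domain. They held 332 of the 480 tags with 2,700,000 cells, or 69.2% (64.9 to 73.1), and 39.0% (30.02 to 48.8) of the tags in brain. The share was 19.5% (10.2 to 34.0) in lung, 6.19% (2.87 to 12.8) in kidney, 16% (6.4 to 34.7) in 270,000 cells and 0 in the liver organ. The pairs that set these places came from the 2,700,000-cell library and from brain, which by itself raises the shares of those 2 libraries.

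The Gm33148 site, chr7:142610410-142611138, is about midway between H19 and Igf2. With 2,700,000 cells it held 152 tags (129 to 178) in 22 peaks, none of them with all tags at 1 position. Brain held 2 tags in 1 peak, and lung, kidney, the liver organ and the smaller titration libraries had none listed. If the others had held the same share of their listed tags, brain would have had 23.8, lung 15.9, kidney 37.7, the liver organ 12.2 and 270,000 cells 14.8, before any loss to the minimum of 2 tags per peak. The rate in brain was 0.0840 times that with 2,700,000 cells (0.0101 to 0.309). As pairs of the 2,700,000-cell library alone chose the site, its level there was selected, and these expected tags and this rate are a description. Sites of 80 to 120 tags over the genome were chosen in the same way but read only within 100 bp of the middle. They also held few tags elsewhere, with a median of 3 in brain and 0 in the liver organ.

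The exonuclease pattern at the Gm33148 site was unequal between the strands. The reverse peak at position 142610771 held 48 tags, the most of any peak in the domain, and the strongest forward peak, at 142610703, held 15. The letters CCTCACGGGGGC, printed in capitals above, span 142610753 to 142610764. The main forward stop lay 50 bp before them and the main reverse stop 7 bp after them. Of 47 forward tags 43 lay before the letters, and of 105 reverse tags 95 lay after them. The site was chosen from pairs with the forward peak first, and the letters lie between its strongest stops. Such a split is thus largely set by the choice, and whether CTCF binds these letters was not tested. The only brain peak, 2 reverse tags at 142610743, lay 10 bp before them.

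Over the genome, CCNNNNGNNGGC was found on either strand in 25.3% of 32851 such windows before gene starts. It was in 60.2% of the 1567 windows that hold a site of the 2,700,000-cell library and in 23.6% of the rest. AGGGGGC was in 10.6% of all windows, in 29.1% of those with a site and in 9.69% of the rest, and GNGGCAG in 30.7%, 37.8% and 30.4%. Neither AGGGGGC nor GNGGCAG occurs in the Gm33148 window. The window held 133 tags with 2,700,000 cells, more than 99.3% of all windows. It was picked for holding the strongest site of the domain. The 4 windows of Igf2, that of Nctc1 and those of Gm33148 between 142591409 and 142591729 held 0 in each library. Few tags are the common case, since a further Gm33148 window with 6 tags held more than 93.6% of all windows. The Igf2 window with the printed stretch has AGGGGGC at 3 places and no listed peak. Windows with these letters and no site are common, as 9.69% of the windows without a site have them. H19 and Ins2 have no such window in the table used.

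The Igf2 upstream site, chr7:142671946-142672655, was the place shared by most libraries. It lies between genes, 5484 bp from the end of Igf2 where its first annotated start is, 1944 bp beyond Igf2os, a transcript antisense to Igf2, and 6356 bp short of Ins2. The library of 2,700,000 cells held 129 tags (108 to 153) there, brain 18 (10.7 to 28.4), lung 8, kidney 4, 270,000 cells 2, and the liver organ and 27,000 cells none. The tags of lung and of kidney each formed 1 peak at 1 position. Per listed tag, brain reached 0.891 times the rate with 2,700,000 cells (0.512 to 1.46) and lung 0.591 times (0.250 to 1.2). The ratio was 0.125 (0.0335 to 0.328) in kidney and 0.160 (0.0191 to 0.588) with 270,000 cells. The pairs of the 2,700,000-cell library largely chose this site too, so these ratios are a description. Sites of 80 to 120 tags over the genome, read only within 100 bp of the middle, give a rough scale. Their medians were 0 tags in kidney and 2 with 270,000 cells.

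The strongest stops at the Igf2 upstream site were not the same in brain as with 2,700,000 cells, although some stops were shared. With 2,700,000 cells the strongest forward peak, 24 tags at 142672324, and the strongest reverse peak, 21 tags at 142672361, were 37 bp apart. In brain the strongest were 6 forward tags at 142672298 and 8 reverse tags at 142672438, 140 bp apart. A weaker forward peak of brain, 2 tags at 142672269, lay within 5 bp of one of 11 tags at 142672266 with 2,700,000 cells, and the reverse peak of brain within 10 bp of one of 14 tags at 142672445. The lung peak, 8 forward tags at 142672349, lay within 5 bp of a forward peak of 3 tags with 2,700,000 cells. The kidney peak at 142672388 and that of 270,000 cells at 142672393, both reverse, lay within 5 bp of each other. No position of the domain was shared, on the same strand and within 5 bp, by more than 2 libraries.

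**Figure D2:**
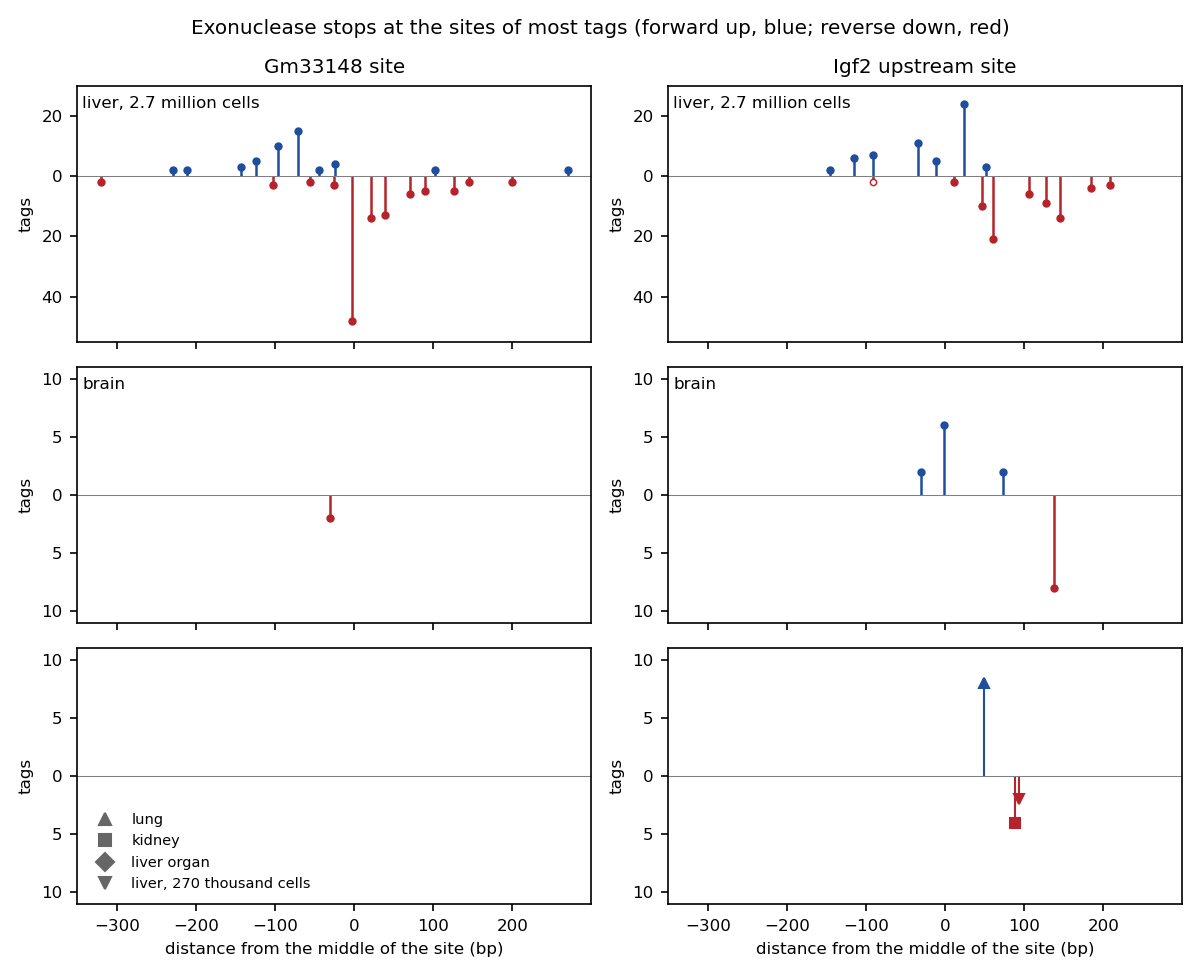
Tags of each peak (vertical axis, forward up in blue, reverse down in red) against the distance in bp from the middle of the Gm33148 site (left) and of the Igf2 upstream site (right), for 2,700,000 liver cells, brain, and the other libraries together. Open points in the upper 2 rows are peaks at 1 position. The strongest reverse stop of the left panel holds 48 tags, and the left panel of the lowest row is empty, since those libraries list no peak there.

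Sites of like strength over the genome give the scale for these distances. Among 6589 sites of the 2,700,000-cell library with 80 to 120 tags, the strongest stops within 250 bp of the middle of the site, counted from the forward to the reverse one, were a median of 44 bp apart, with quartiles of 38 and 68 bp. The 68 bp at the Gm33148 site were longer than at 74.7% of them, and the 37 bp at the Igf2 upstream site longer than at 19.2%. For brain, read at the same sites, the median was 50 bp with quartiles of 7 and 103 bp over the 2720 sites with both strands. The 140 bp at the Igf2 upstream site exceeded 83.3% of those. All these distances are signed. Where the strongest reverse stop lay before the forward one, the distance was negative and counted as shorter, however far apart the stops were. The strongest stops named at both sites of the domain also lie within 250 bp of the middle of a site.

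The control region upstream of H19 held few tags in every library. The place read there spans chr7:142580093-142581021, with pair centres 2197 and 2625 bp beyond the upstream end of H19. The 2,700,000-cell library had 24 tags (15.4 to 35.7) in 10 peaks of 2 or 3 tags each. Brain had 6 tags, kidney 2 and 270,000 cells 2, each in 1 forward peak at 1 position, and lung, the liver organ and 27,000 cells had none listed. The brain rate per listed tag was 1.60 times that with 2,700,000 cells (0.534 to 4.01), an interval that includes equality. Both sites of the 2,700,000-cell library in the region were weak, with 5 and 7 tags, and 6.4% and 12.9% of that library's sites over the genome had fewer. Just beyond this place, up to 4 kb from H19, brain had a reverse peak of 2 tags at 142581843, not at 1 position. Kidney had a reverse peak of 4 tags at 142582129, at 1 position. The 2,700,000-cell library had forward peaks of 4 tags at 142581766 and 2 at 142581993. A further 5 peaks of 2 or 3 tags of the 2,700,000-cell library lay further out, between 142584542 and 142584717, with the strands too far apart to form a pair.

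Over the 5 kb upstream of H19, which are 3.13% of the domain, brain listed 10 tags, lung 7, kidney 10, the liver organ 0, 2,700,000 cells 32, 270,000 2 and 27,000 0. These were 10% (5.52 to 17.4) of the domain's tags in brain, 17.1% (8.53 to 31.3) in lung, 10.3% (5.70 to 17.9) in kidney and 6.67% (4.76 to 9.26) with 2,700,000 cells. The share was 0 (0 to 10.7) in the liver organ and 8% (2.22 to 24.97) with 270,000 cells. The first 4 intervals lie above the share of length and the latter 2 include it. With peaks of at least 3 tags the interval came to include it also for 2,700,000 cells, at 4.62% (2.87 to 7.38), and for kidney, at 4.71% (1.85 to 11.5), as it did for brain without peaks at 1 position, at 5.56% (1.54 to 18.1). Every lung and kidney tag in these 5 kb was in a peak at 1 position. The intervals treat tags as separate, although they lay in 3 peaks in brain, 2 in lung and 4 in kidney. The lung peaks lay 213 and 1879 bp from H19. The 2 to 4 kb upstream of H19 held 30 of the 32 tags of the 2,700,000-cell library, 15.0 tags per kb. That stretch is 1.25% of the domain. Brain held 8 tags there, kidney 6, 270,000 cells 2, the liver organ 0 and lung 0 (0 to 8.57% of its domain tags).

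**Figure D3:**
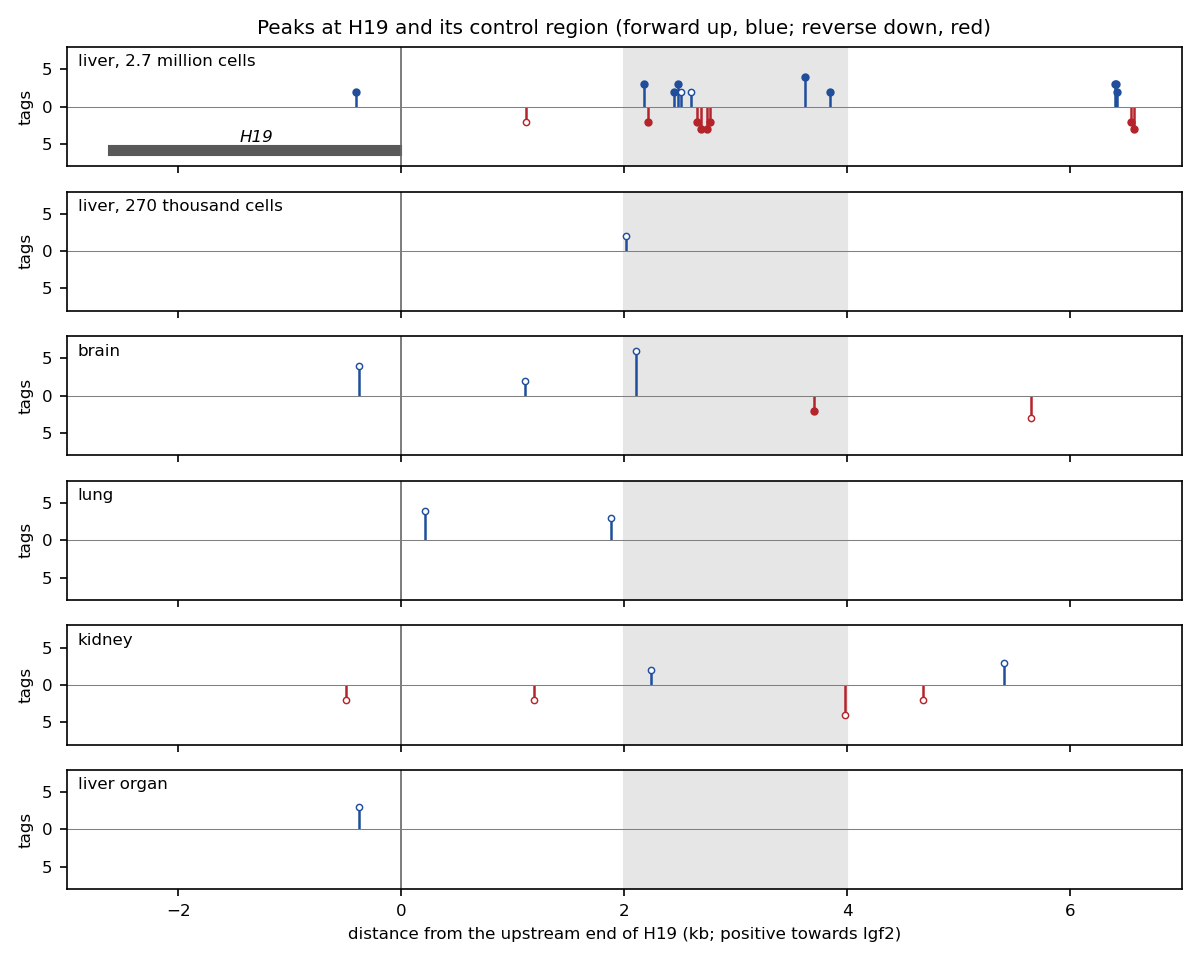
Tags of each peak (vertical axis, forward up in blue, reverse down in red) around H19 (grey bar) against the distance in kb from its upstream end, 1 row per library, with 2 to 4 kb upstream shaded. Filled points have tags at more than 1 position and open points at 1. No peak shown has more than 6 tags, and the peaks of 2,700,000 cells crowd in the shaded part.

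H19 itself, with 1 kb on each side, gave brain 4 tags, lung 4, kidney 2, the liver organ 3, 2,700,000 cells 2 and 0 in both smaller titration libraries. No library had more than 1 peak there. Brain and the liver organ shared a position inside H19, with 4 forward tags at 142577766 and 3 at 142577767, each at 1 position. These 3 tags were, with a reverse peak of 3 tags in Gm33148, the most of any liver organ peak in the domain.

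Igf2 with 1 kb on each side gave brain 13 tags, lung 11, kidney 4, the liver organ 0, 13 with 2,700,000 cells, 8 with 270,000 and 0 with 27,000. With 2,700,000 cells these were 2.71% (1.59 to 4.58) of the domain's tags on 11.3% of its length, a lower share than that of length. The domain's tags there lay mostly in the 5 places, 332 of 480, and none of these places is in this stretch. Igf2 with its flanks had 0.720 tags per kb, against 0.691 beyond Ins2 and 0.957 on the far side of H19. In brain the share was 13% (7.76 to 20.98), and in lung 26.8% (15.7 to 41.9). Lung's tags were mostly 1 reverse peak of 9 tags at 142667349, at 1 position, just outside the gene. Lung and brain shared a reverse position in Igf2, 142656213 and 142656214, with 2 tags each.

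Ins2 was free of listed peaks in all 7 libraries. With 1 kb on each side it held 8 tags in kidney, in 2 peaks at 1 position, and 4 with 2,700,000 cells, and 0 in the others. Between Igf2 and Ins2 brain listed 20 tags, lung 25, kidney 16, the liver organ 2, 168 with 2,700,000 cells and 2 with 270,000. On 7.40% of the length these were 35.0% (30.9 to 39.4) of the domain's tags with 2,700,000 cells, 20% (13.3 to 28.9) in brain and 61.0% (45.7 to 74.3) in lung. The lung share rests on 3 peaks, each at 1 position. This stretch also has a weaker place, the Igf2-Ins2 site at chr7:142675638-142676138, with 25 tags (16.2 to 36.9) in 9 peaks for 2,700,000 cells and none listed in the other libraries.

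On the far side of H19, where Nctc1 encodes another noncoding RNA, brain held 29 tags, kidney 19, the liver organ 6, 2,700,000 cells 34, 270,000 2, and lung and 27,000 cells none. The Nctc1 site, chr7:142549813-142550313, was the only place found from a brain pair alone. Brain had 13 tags there in 5 peaks, of which 1 was at 1 position, and 2,700,000 cells had 2 tags in 1 peak. Per listed tag the brain rate was 41.5 times higher (9.39 to 379). As the brain pair chose the site, this ratio is a description. The tags of the other libraries there were 0. The largest kidney peak of the domain, 11 reverse tags at 142566178, lay elsewhere on this side and was at 1 position.

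**Figure D4:**
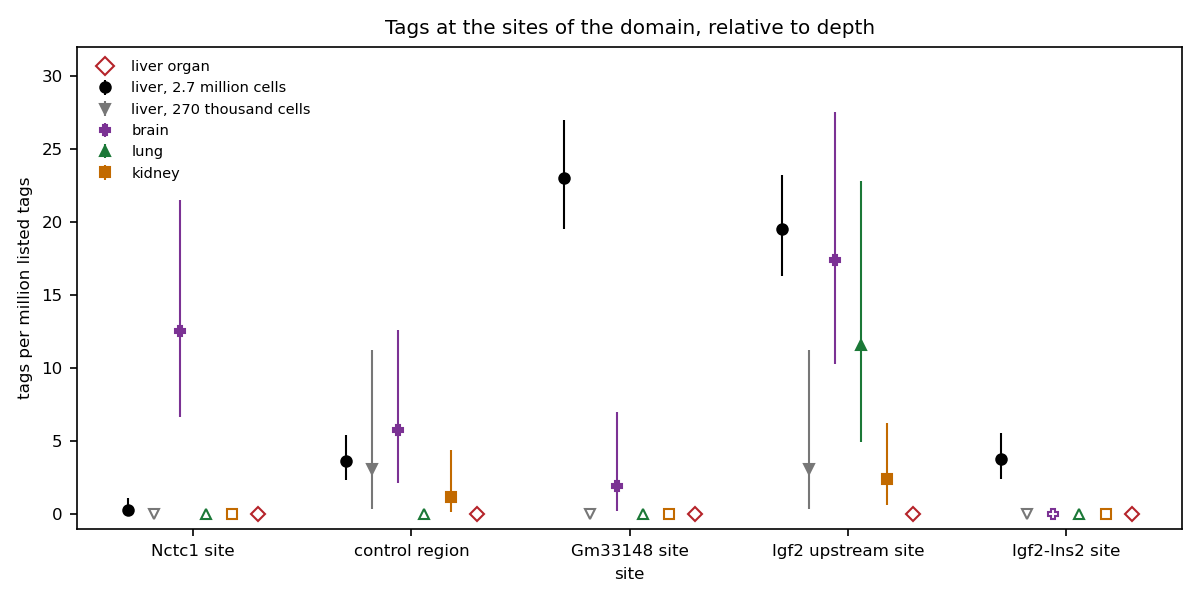
Tags per 1,000,000 listed tags (vertical axis) at the 5 places of the domain, for 6 libraries. Filled points carry 95% exact Poisson intervals and open points at 0 mark libraries with no listed peak. Among the libraries, that of 2,700,000 cells is highest at the Gm33148 site, with 23.1, and brain at the Nctc1 site, with 12.6. Each of these sites was chosen from pairs of that same library, which by itself raises its level there. At the Igf2 upstream site, where brain has 17.4, the intervals of these libraries overlap.

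The sites of the 2,700,000-cell library were chosen from its own pairs, so the other libraries were read at all its sites over the genome as well. That library has 71610 sites over the genome, with a median of 29 tags (quartiles 12 and 69), and 6 in the domain, with 5, 7, 109, 49, 91 and 13 tags in order of position. Among windows of the same length that hold any site, the median is 4, and windows without a site are left out of it. Brain had a peak within 100 bp at 3 of the 6, where 35.5% of all sites have one. Lung had 1 of 6 against 27.6%, kidney 1 against 25.4%, the liver organ 0 against 14.9%, 270,000 cells 0 against 27.2% and 27,000 0 against 1.31%. Of the 3 sites with at least 20 tags, brain had a peak at 2 (50.2% over the genome), lung at 1 (39.7%), and kidney (35.1%), the liver organ (21.4%), 270,000 cells (40.1%) and 27,000 cells (2.0%) at 0. With so few sites these counts say little beside the shares.

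The strongest part of the Gm33148 site, 109 tags, and the Igf2 upstream site, 91 tags, may be set beside sites of 80 to 120 tags. Brain had a peak at both, where 65.0% of such sites have one, and lung at 1, where 52.2% do. Here a peak counts within 100 bp of the middle of the pairs of the 2,700,000-cell library, which is 142672269 at the Igf2 upstream site. By this count kidney (45.3%), the liver organ (26.7%), 270,000 cells (53.0%) and 27,000 cells (1.49%) had a peak at neither, since the kidney peak at 142672388 and that of 270,000 cells at 142672393 lay just outside the window. At such sites 270,000 cells held a median of 2 tags, and 47.0% had none. Being at 0 in the liver organ was the common case, at 73.3% of them. In brain the 2 tags at the Gm33148 site were close to the median of 3 for such sites, of which 44.8% had 2 or fewer. The 8 tags that brain and lung each held at the Igf2 upstream site by this narrower window were above the medians of 3 tags in brain and 2 in lung, and 73.9% of the sites in brain and 72.8% in lung had 8 or fewer.

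Single positions were seldom shared with the deepest library. Within 5 bp and on the same strand, 2 of 32 brain peaks of the domain had a counterpart with 2,700,000 cells, where 9.02% of all brain peaks do. Lung had 1 of 7 (14.4%), kidney 0 of 25 (3.60%), the liver organ 0 of 15 (5.49%) and 270,000 cells 0 of 8 (14.1%). With the deepest library left out, 2 of 32 brain peaks had a counterpart in any other library, where 6.08% of all brain peaks do. Lung then had 1 of 7 (10.7%), kidney 1 of 25 (3.16%), the liver organ 1 of 15 (5.79%) and 270,000 cells 1 of 8 (8.47%). With so few peaks these counts say little beside the shares. All 7 lung peaks and all 25 kidney peaks in the domain had their tags at 1 position, as did 20 of 32 in brain, 10 of 15 in the liver organ, 7 of 8 with 270,000 cells and 34 of 121 with 2,700,000. These peaks held 64 of the 100 tags of brain, 22 of 32 in the liver organ, 23 of 25 with 270,000 cells and 77 of 480 with 2,700,000.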

How the data were processed

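CTCF ChIP-exo 5.0 was measured in 4 organ and 3 titration libraries, grouped by the titles of the samples. The authors sequenced 2 × 40 bp reads, aligned them, kept unique alignments and removed PCR duplicates, which share the sequence of both reads. According to the submitters' processing notes, bcl2fastq 2.16, BWA 0.7.9a and mm10 were used. The authors deposited peak lists with the count of tags in each peak of 21 bp, not normalized, and the spread of tag positions, and no list was left out.

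The deposited counts were added up for each region and site of each library. Sites were joined pair centres at most 100 bp apart, read within 100 bp of the middle. Gene positions and the windows before gene starts came from RefSeq for GRCm38.p6, which has the coordinates of mm10. A genome was not used here, so the planned motif search at all sites was replaced by one in those windows. Sites are named in order of position, in full if they have at least 20 tags with 2,700,000 cells or tags in at least 2 organs. The Nctc1 and Igf2-Ins2 sites are given in full also. Reading sites within 500 bp as 1 place, with 250 bp beyond the outer pair centres, the sites of 80 to 120 tags and the letters CCNNNNGNNGGC were chosen after the data were seen. The members and all lists were chosen with earlier results of these data known.

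Intervals are 95% Wilson (shares), exact Poisson (tags) and exact conditional binomial (ratios). Alternatives changed the minimum of tags, the peaks at 1 position, the distances for pairs, sites and shared positions, and the total. The counting of pairs, sites and windows was tested on simulated data. Scripts ran in Python 3.11.15 with scipy 1.17.1, pandas 2.3.3, numpy 2.4.6 and matplotlib 3.10.9.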

Additional observations from a re-analysis of the deposited data

How the results depend on the processing

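Of 101 values recomputed under the alternatives, 55 stayed and 46 moved, a level or share having moved when it left the counting interval of the value as reported, and a number of peaks, pairs or sites or a distance when it changed by more than 1.5 times. With peaks of at least 3 tags the domain had 101 peaks, 3 pairs and 2 sites, 2 of them of the 2,700,000-cell library, and with at least 5 tags 34 peaks, 2 pairs, 2 sites and again 2 of that library. Sites of at least 20 tags left 3, and joining within 50 bp gave 11 sites. Brain then had a peak at 1 site with either higher minimum, kidney at 0 with at least 5 tags or with sites of at least 20 tags, and lung at 0 within 50 bp. Leaving out peaks with all tags at 1 position left 105 peaks and took lung and kidney to 0 detected sites and 0 tags per 1,000,000, brain to 135 tags per 1,000,000 and 12 times its median window, and 270,000 cells to 7.77 tags per 1,000,000. With 2,700,000 cells the ratio to the median window was then 2.62, with at least 3 tags 2.79 and with at least 5 tags 3.21. Tags per 1,000,000 with at least 5 tags were 69.7 in brain, 59.5 with 2,700,000 cells, 21.2 with 270,000 and 0 in the liver organ, which had 28.8 with at least 3. With a total that omits 23 dense bins, mitochondrial and unplaced sequences, the 2,700,000-cell library had 80.05. The Gm33148 site had 0 brain tags with at least 3 or 5 tags and 121 tags with 2,700,000 cells with at least 5. Upstream of H19 the share in brain became 24% with at least 5 tags, in kidney 4.71% with at least 3 and 0 with at least 5, and with 2,700,000 cells 4.62% and 0. Brain peaks at the position of a peak with 2,700,000 cells numbered 0 with at least 3 tags, 0 within 2 bp and 6 within 10 bp, and lung had 0 without peaks at 1 position. Between the peaks nearest to the site centre, stops lay 21 bp apart at the Gm33148 site and 23 bp at the Igf2 upstream site. The alternative read width of 100 bp beyond the outer pair centres and the band of 80 to 120 tags were chosen after seeing the data. Except where the alternative itself removes peaks or sites, the cause was not tested.

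No paired analysis was possible because each group has 1 library. The motif search within 50 bp of the sites was not run, since no genome was used. Depth limits the organ values. At 527038 to 1635582 listed tags, a site must gather at least 2 tags at nearly the same position to be listed, so a site with spread stops can be missed. The peaks at 1 position, the minimum of 2 tags and the lack of replicates bound each difference between organs, and a difference in depth and in the organ cannot be told apart.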
